A study of Mus musculus with 12 samples.

Results

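The transcripts described are those of the rotary proton pumps, the vacuolar H+-ATPase (V-ATPase) and the mitochondrial ATP synthase. They were taken as every probe set of the array whose platform annotation gives a single gene symbol that starts with Atp6v, Atp6ap or Atp5. This gave 39 genes of 18193 in the series, 22 vacuolar (Atp6) and 17 mitochondrial (Atp5), and 78 probe sets of 45101. Of these, 17 Atp6 genes and 17 Atp5 genes were bright enough to be tested, by a probe set above the median of its own array on at least 3 arrays. The 5 genes below that filter were Atp6v0a4, Atp6v0d2, Atp6v1b1, Atp6v1c2 and Atp6v1e2, all vacuolar isoforms known mainly from kidney, bone or testis. Each gene is represented by the brightest of its probe sets.

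RNA was amplified from astrocytes of the lumbar spinal cord, cut out by laser, in SOD1 G93A mice and nontransgenic (NTg) littermates. The SOD1 G93A mouse carries a mutant human SOD1 transgene under its own promoter on a C57Bl/6 J Ola/Hsd background and develops a motor neuron disease that models amyotrophic lateral sclerosis (ALS). The 4 groups were SOD1 G93A mice and NTg mice at 90 days (symptomatic) and SOD1 G93A mice and NTg mice at 120 days (late-stage), all male, with 3 mice and 3 arrays in each group. The transgene is present in every cell of the mouse, so a difference between genotypes is not one of mutant SOD1 in astrocytes alone. The study itself describes the captured RNA as a mixture with a large astrocytic component.

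Both pumps are rotary motors built from a water-soluble head and a membrane ring. In the V-ATPase the V1 head hydrolyses ATP and turns the V0 ring, which moves protons into lysosomes, endosomes and synaptic vesicles. In the ATP synthase protons flow back through the FO ring of the inner mitochondrial membrane and the F1 head makes ATP. Lysosomal acidification serves the breakdown of phagocytosed material, and in neurons the same pump provides the gradient that loads transmitter into vesicles.

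Promoters of 31 of the 39 genes were found by gene identifier in RefSeq (GRCm38.p6), as 300 bases from 250 before the gene's start to 50 after it. The genes not matched were Atp6v1h, Atp6v1c1, Atp6v1b2, Atp6v1g1, Atp6v0a2, Atp6v0d2, Atp5a1 and Atp5mpl, so the motif counts leave out both genes called at 120 days, Atp6v1h and Atp6v1c1. Then 3 motifs were searched on both strands. They were TCACGTG, the core of the CLEAR element bound by TFEB and its relatives at lysosomal genes, GCATGCG, the core of the palindromic site of NRF1 at many genes of the respiratory chain, and CCGGAAG, the core bound by ETS factors such as GABP. A member gene counted if any promoter listed for it held the motif, while the percentages are shares of promoters, not of genes. TCACGTG was found in 4 of 16 Atp6 genes (Atp6v0b, Atp6v0d1, Atp6v0e and Atp6v1a), in 1 of 15 Atp5 genes (Atp5l) and in 3.77% of 32851 promoters. GCATGCG was found in 3 Atp6 genes (Atp6v0d1, Atp6v1e1 and Atp6v1f), in 4 Atp5 genes (Atp5g2, Atp5j, Atp5k and Atp5l) and in 3.58% of all promoters, and CCGGAAG in 4 Atp6 genes, 6 Atp5 genes and 8.86% of all promoters. The following 5 promoters are shown, with the motif in capitals, because 2 pairs of them hold the same letters at genes whose late-stage differences had opposite signs, and Atp5e because it had the highest late-stage difference. They were chosen after their values were seen. Atp6v1a and Atp6v0b hold TCACGTG. In Atp6v1a it lies on both strands as a palindrome, whose 2 matches overlap by all but a base, and Atp6v0b holds 2 separate copies. Atp6v1e1 and Atp5g2 hold GCATGCG, likewise on both strands and overlapping. Atp5e holds CCGGAAG, read on its opposite strand.
Atp6v1a, chr16:44139210-44139509 (minus strand): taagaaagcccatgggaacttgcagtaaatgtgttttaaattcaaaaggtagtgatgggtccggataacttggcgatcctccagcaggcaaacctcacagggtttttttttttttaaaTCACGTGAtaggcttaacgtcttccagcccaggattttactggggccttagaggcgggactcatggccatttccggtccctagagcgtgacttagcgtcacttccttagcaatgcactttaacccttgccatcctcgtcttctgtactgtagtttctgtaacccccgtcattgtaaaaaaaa
Atp6v0b, chr4:117887280-117887579 (minus strand): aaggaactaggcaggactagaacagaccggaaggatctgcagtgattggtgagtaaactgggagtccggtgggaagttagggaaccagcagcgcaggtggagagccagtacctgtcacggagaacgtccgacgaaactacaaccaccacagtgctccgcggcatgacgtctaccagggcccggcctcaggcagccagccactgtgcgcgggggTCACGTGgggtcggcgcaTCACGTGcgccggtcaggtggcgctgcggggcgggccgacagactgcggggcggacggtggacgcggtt
Atp6v1e1, chr6:120822649-120822948 (minus strand): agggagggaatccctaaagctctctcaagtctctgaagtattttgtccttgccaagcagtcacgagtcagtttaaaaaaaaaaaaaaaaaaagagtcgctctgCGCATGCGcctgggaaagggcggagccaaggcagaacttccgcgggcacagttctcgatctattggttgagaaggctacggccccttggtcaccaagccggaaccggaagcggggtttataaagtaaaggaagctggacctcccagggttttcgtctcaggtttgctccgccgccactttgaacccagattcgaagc
Atp5g2, chr15:102670998-102671297 (minus strand): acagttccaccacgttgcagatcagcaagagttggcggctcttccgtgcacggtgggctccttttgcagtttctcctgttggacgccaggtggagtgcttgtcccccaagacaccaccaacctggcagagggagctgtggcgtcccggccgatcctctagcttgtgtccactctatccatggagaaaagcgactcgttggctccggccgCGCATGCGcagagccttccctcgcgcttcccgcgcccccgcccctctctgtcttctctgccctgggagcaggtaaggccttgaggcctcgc
Atp5e, chr2:174464052-174464351 (minus strand): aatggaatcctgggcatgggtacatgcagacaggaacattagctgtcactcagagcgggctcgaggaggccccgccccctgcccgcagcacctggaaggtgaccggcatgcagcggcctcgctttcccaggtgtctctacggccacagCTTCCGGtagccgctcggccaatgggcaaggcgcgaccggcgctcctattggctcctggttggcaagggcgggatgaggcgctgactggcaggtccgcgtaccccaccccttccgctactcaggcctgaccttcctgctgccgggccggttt
The log2 differences at 120 days were -1.47 for Atp6v1a and 0.18 for Atp6v0b, and -0.76 for Atp6v1e1 and 0.80 for Atp5g2. That of Atp6v0b turned to -0.23 with each array centred on its median, and its 3 tested probe sets ranged from -0.15 to 0.34. None of these 4 differences passed the test described next.

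Differences are SOD1 G93A minus NTg on the log2 scale of the normalized signal. A gene is called, and said to have risen or fallen, where its adjusted p in limma, over all 26132 probe sets tested, is under 0.05. Marker genes of other cells moved between the same groups at 120 days. Of 17 neuron markers, 5 fell in SOD1 G93A mice (Nefh, Nefl, Nefm, Rbfox3 and Snap25), and the summed deposited signal of all 17 ranged from 10694 to 17142 in SOD1 G93A mice and from 23884 to 30860 in NTg mice. Of 12 microglia markers tested, 10 rose, and the sum over the 13 listed ranged from 13402 to 16675 in SOD1 G93A mice and from 2084 to 2261 in NTg mice. Of 14 astrocyte markers, 3 rose (Gfap, Aldh1l1 and Sox9) and 0 fell. The differences of the 14 had a median of 0.31 and ran from -0.80 to 4.79, with 9 positive and 5 negative. Their sums overlapped, at 22185 to 33330 in SOD1 G93A mice and 19595 to 23918 in NTg mice. No oligodendrocyte marker of 11 was called. Their sums ranged from 41727 to 51378 in SOD1 G93A mice and from 27412 to 34820 in NTg mice, without overlap. Their mean log2 signals did overlap, at 9.81 to 10.68 and 9.92 to 10.48. No endothelial marker of 6 tested was called. The lowest deposited signals among markers were those of Itgam and Trem2, at 0.9 and 1.5 on single arrays. At 90 days 4 microglia markers rose, while neuron markers had no call and sums of 21794 to 25509 in SOD1 G93A mice and of 28481 to 33389 in NTg mice. Their part in the results on the pumps was not tested. In such mixed RNA, fewer cells of a type and less RNA per cell cannot be told apart. The median deposited signal of an array was 38.8 to 55.2 in SOD1 G93A mice at 120 days and 24.9 to 37.1 in the other groups, with the highest median in SOD1 G93A replicate 3 of 120 days. That array also correlated least with its own group (mean r 0.862 over probe sets).

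At 120 days the V1 head of the V-ATPase was, of the sectors of both pumps, the one with the most negative median difference. The median log2 difference from NTg mice was -0.93 over its 9 genes tested, against -0.08 over all 12429 genes tested. Both called genes, Atp6v1h and Atp6v1c1, belong to this sector and both fell. No member rose. These 2 calls among 34 members compare with 8.6% of all genes called in either direction, where 4.47% of all genes fell and 4.14% rose (555 and 514 genes), so the share of members called was near that of all genes. With each array centred on its median in place of quantile normalization the median of all genes shifted to -0.40, the split of all calls was 1624 that fell and 359 that rose, and 9 members fell, 7 of Atp6 and 2 of Atp5.

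Atp6v1h, the regulatory H subunit that couples ATP hydrolysis to proton transport, had normalized log2 signals of 7.84, 7.96 and 6.86 in SOD1 G93A mice and of 8.60, 8.95 and 8.98 in NTg mice at 120 days. The groups did not overlap, and SOD1 G93A replicate 3 was the lowest mouse. The difference was -1.29 (SE 0.325, limma adjusted p = 0.0315). A second tested probe set of the gene gave -0.09 with overlapping groups. At 90 days Atp6v1h had 8.89, 9.49 and 9.32 in SOD1 G93A mice and 9.58, 10.00 and 9.22 in NTg mice, a difference of -0.37 with overlapping groups.

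Atp6v1c1, the C subunit that holds the outer stalks to the membrane sector and leaves when the pump comes apart, had 10.74, 10.26 and 10.02 in SOD1 G93A mice and 11.12, 11.50 and 11.19 in NTg mice at 120 days. All SOD1 G93A mice lay below all NTg mice, with a difference of -0.93 (SE 0.242, limma adjusted p = 0.0357). Its other 2 probe sets gave -0.81 without overlap and -0.35 with overlap, neither called. At 90 days the 6 mice lay within 11.27 to 11.41, the SOD1 G93A mice at 11.31, 11.38 and 11.28 and the NTg mice at 11.27, 11.41 and 11.36. Neither call held without SOD1 G93A replicate 3 of 120 days or without any single NTg mouse of 120 days. Atp6v1h also lost its call with no filter, with each age fitted alone, and in the unmoderated linear model, and Atp6v1c1 with no filter, with each age alone, with values as deposited, without NTg replicate 1 of 90 days or without SOD1 G93A replicate 2 of 120 days.

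**Figure D1:**
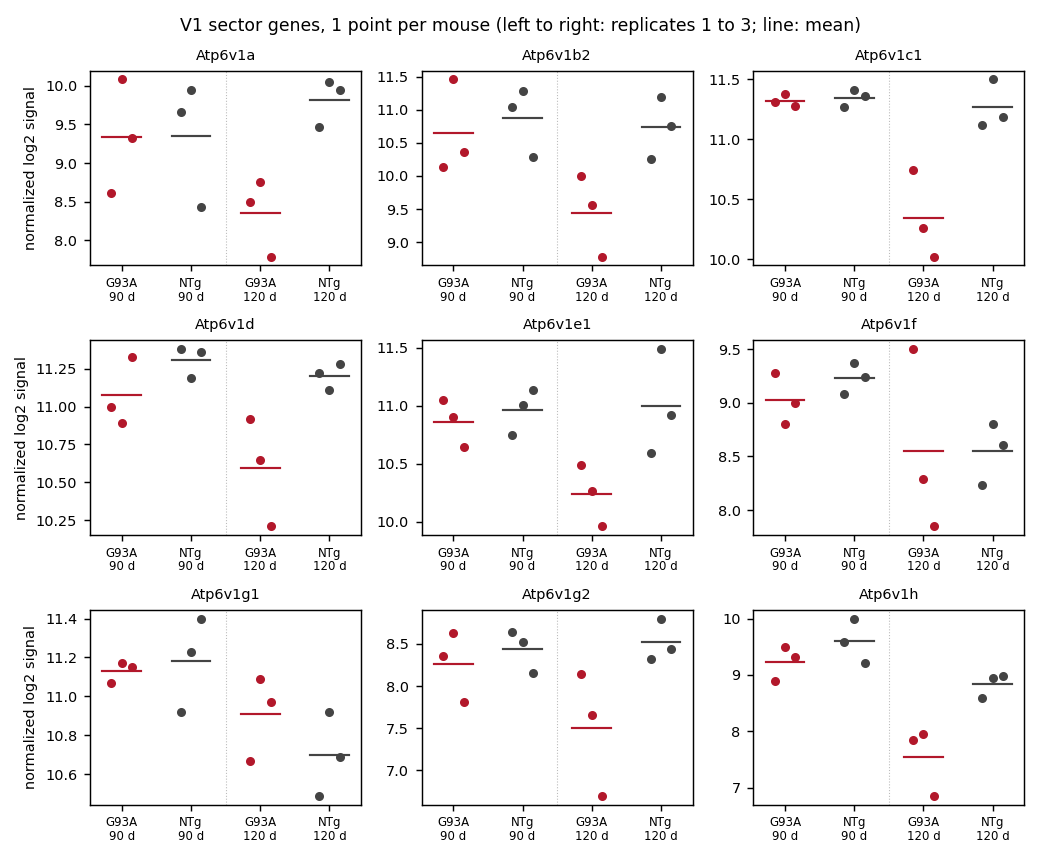
Normalized log2 signal (vertical axis, a scale of its own in each panel) of the 9 V1 genes in each mouse at 90 and 120 days, with SOD1 G93A in red and NTg in grey. Points stand for replicates 1 to 3 from left to right and lines for the mean. At 120 days the SOD1 G93A points lie below all NTg points in 7 of the 9 panels, and Atp6v1f and Atp6v1g1 are the panels where they do not.

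The catalytic A subunit Atp6v1a had the most negative difference of the members at 120 days but was not called. Its log2 signals were 8.50, 8.76 and 7.79 in SOD1 G93A mice and 9.46, 10.05 and 9.95 in NTg mice, a difference of -1.47 (SE 0.439, limma adjusted p = 0.0576) without overlap. Its second probe set was called, at -1.05 (SE 0.288, limma adjusted p = 0.0429). The B subunit Atp6v1b2, the non-catalytic partner of A in the head, had 10.00, 9.56 and 8.78 in SOD1 G93A mice and 10.25, 11.20 and 10.76 in NTg mice, a difference of -1.29 (limma adjusted p = 0.0782). The groups did not overlap, and SOD1 G93A replicate 1 lay nearest to the NTg mice. The 3 tested probe sets of Atp6v1b2 ranged from -2.02 to 0.10 and none was called.

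The rotor subunits D and F and the stalk subunits E and G had differences from -1.02 to 0.21 at 120 days, none of them called by the brightest probe set. The central shaft Atp6v1d had 10.92, 10.65 and 10.21 in SOD1 G93A mice and 11.22, 11.11 and 11.28 in NTg mice, a difference of -0.61 that was not called, and all 3 of its probe sets were negative, from -1.32 to -0.61. Of these 1 was called, at -0.85 (SE 0.233, limma adjusted p = 0.0421). The stalk subunit Atp6v1e1 had 10.49, 10.26 and 9.96 in SOD1 G93A mice and 10.59, 11.49 and 10.92 in NTg mice, a difference of -0.76 that was not called. The second calls of Atp6v1a and Atp6v1d were each lost in 13 of 24 alternatives, among them the omission of SOD1 G93A replicate 3 or of any NTg mouse of 120 days.

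The G subunits, which pair with E in the stalks, did not share a direction. Atp6v1g2, the isoform known from neurons, had 8.14, 7.66 and 6.70 in SOD1 G93A mice and 8.32, 8.80 and 8.44 in NTg mice, a difference of -1.02 (limma adjusted p = 0.0892) without overlap. Atp6v1g1, the widely expressed isoform, had 10.67, 11.09 and 10.97 in SOD1 G93A mice and 10.49, 10.92 and 10.69 in NTg mice, a difference of 0.21 with overlap, which turned to -0.17 with median centring. Its other tested probe set was at 0.78 with all SOD1 G93A mice above all NTg mice. Atp6v1f, of the central rotor, had 9.50, 8.29 and 7.85 in SOD1 G93A mice, a wider range than the 8.23, 8.80 and 8.61 of NTg mice, and a difference of 0.00.

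Apart from the calls, 7 of the 9 V1 genes had all 3 SOD1 G93A mice below all 3 NTg mice at 120 days, where 20.4% of all genes tested did. By limma, 7 of 9 had an unadjusted p under 0.05 in that direction, where 16.1% of all genes did. V1 was singled out by its median in the same values, so these counts are no separate test. These genes come from the same 6 mice and are not independent. SOD1 G93A replicate 3 was the lowest mouse of its group in 8 of the 9 genes. It was also lowest for the mean over all genes tested, at 7.08 against 7.26 and 7.25. The same held for the means of astrocyte (9.61), oligodendrocyte (9.81) and endothelium (6.16) markers, but not for those of microglia markers (8.12) or Atp5 genes (10.15). The mean log2 signal of the V1 genes was 9.64, 9.39 and 8.79 in SOD1 G93A mice and 9.81, 10.31 and 10.09 in NTg mice. All 3 SOD1 G93A means lay below all 3 NTg means, with that of replicate 1 nearest to them. In the same mice, in the same order, the mean of the 17 neuron markers was 8.86, 8.76 and 8.56 in SOD1 G93A mice and 9.43, 9.71 and 9.65 in NTg mice. The V1 median was negative under all 25 alternatives, from -1.30 to -0.64.

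In the V0 ring the 6 genes tested had a median difference of -0.14 at 120 days, with 3 above and 3 below 0 and no call, and 1 gene without overlap. Atp6v0c, which codes for the main proteolipid of the ring, was not analysed here, since no probe set carries it as its only symbol. The median was 0.11 where all probe sets of a gene were averaged, -0.60 with median centring and from -0.23 to -0.045 with a mouse left out. Of the a subunits, which form the proton path, Atp6v0a1 was at -0.34 and Atp6v0a2 at 0.06. The third, Tcirg1, known from osteoclasts and macrophages and not part of the naming rule, was at 0.93 (limma adjusted p = 0.098), with 7.37, 7.50 and 8.48 in SOD1 G93A mice and 7.02, 6.72 and 6.81 in NTg mice. The ring subunit Atp6v0b had 10.72, 10.46 and 11.03 in SOD1 G93A mice and 10.47, 10.63 and 10.58 in NTg mice, a difference of 0.18 with overlap, which turned to -0.23 with median centring. Atp6v0d1, which joins the ring to the central shaft, had 9.38, 9.07 and 9.09 in SOD1 G93A mice and 9.34, 10.00 and 9.83 in NTg mice. These overlapped at 1 mouse of each group, with a difference of -0.54.

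The small e subunits of V0 differed from each other in sign. Atp6v0e2, enriched in brain, was at 9.19, 9.44 and 8.21 in SOD1 G93A mice and 9.58, 10.29 and 9.68 in NTg mice, a difference of -0.91 (limma adjusted p = 0.143) without overlap. Atp6v0e was at 8.41, 8.92 and 8.13 in SOD1 G93A mice and 7.91, 8.19 and 7.96 in NTg mice, a difference of 0.47 with overlap, which was -0.05 with median centring. Of the accessory proteins, Atp6ap2, the prorenin receptor that is needed to assemble the pump, was at 12.23, 12.05 and 11.52 in SOD1 G93A mice and 12.91, 12.61 and 12.76 in NTg mice. Its difference of -0.82 (SE 0.241, limma adjusted p = 0.0549) was not called, and its 3 probe sets, from -1.42 to -0.81, all had SOD1 G93A mice below NTg mice. Atp6ap1 was at -0.05 with overlap.

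**Figure D2:**
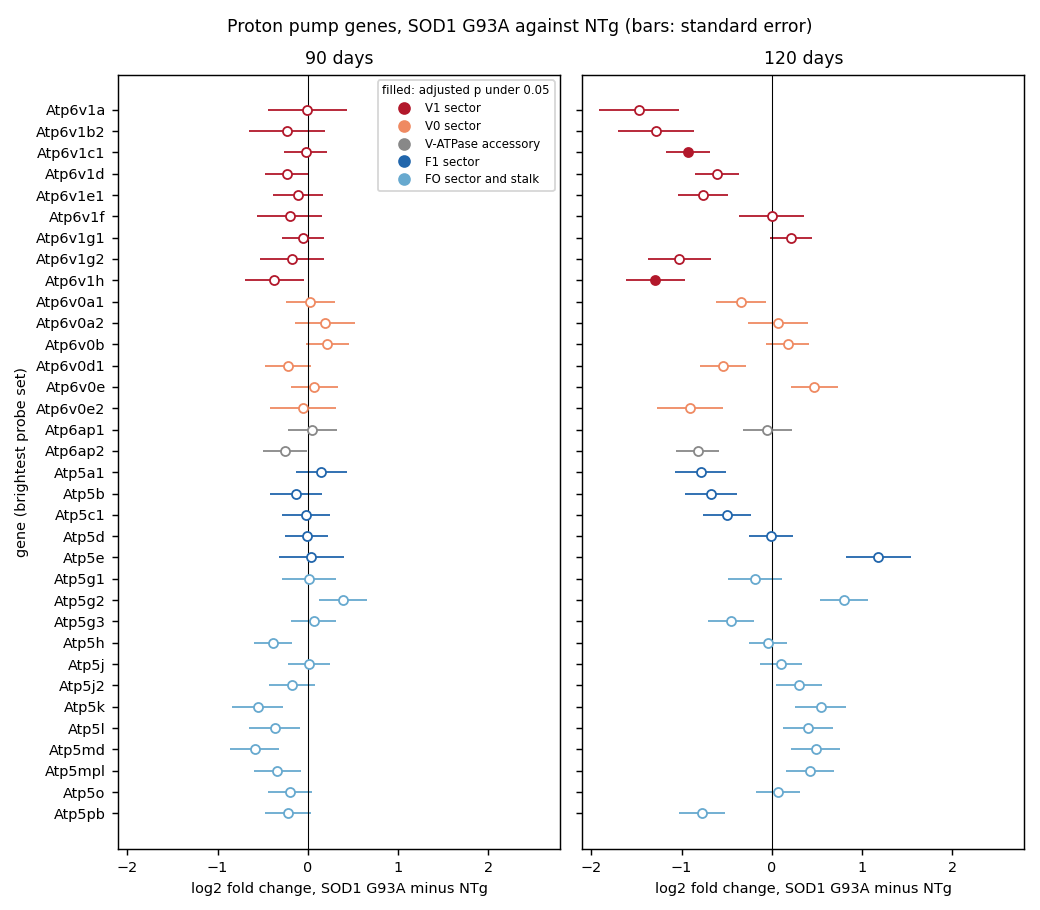
Log2 difference, SOD1 G93A minus NTg (horizontal axis, with the standard error as bars), for the brightest probe set of each of the 34 genes tested at 90 days and at 120 days, coloured by sector. At 120 days most V1 genes (dark red) lie below 0 and the FO and stalk genes (light blue), whose median turned to -0.20 with median centring, lie on both sides, and only Atp6v1c1 and Atp6v1h are filled as called.

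In the ATP synthase no gene of 17 was called at 120 days. By limma, 2 genes were higher and 3 lower at an unadjusted p under 0.05, against 11.6% and 16.1% of all genes. Among 24 alternatives run for single genes, Atp5e rose in 5 and Atp5g2 in 1, and Atp5pb fell in 5 and Atp5a1 in 2. The median difference was 0.07, between -0.79 and 1.18. It stood near the median of all genes and turned to -0.27 with median centring, where the median of all genes was -0.40, to -0.01 with array weights, and to -0.02 without SOD1 G93A replicate 1 or without replicate 3 of 120 days.

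Within the enzyme the F1 head genes Atp5a1, Atp5b and Atp5c1, which code for the alpha, catalytic beta and gamma subunits, each had all 3 SOD1 G93A mice below all 3 NTg mice at 120 days. Atp5a1 was at 11.02, 10.60 and 10.53 in SOD1 G93A mice and at 11.30, 11.85 and 11.36 in NTg mice, a difference of -0.79 (limma adjusted p = 0.100). Another, dimmer probe set of Atp5a1 lay at 0.56 with the opposite order. Atp5b was at 10.39, 10.00 and 9.98 in SOD1 G93A mice and at 10.53, 11.16 and 10.70 in NTg mice, a difference of -0.68 (limma adjusted p = 0.159). Atp5c1 was at -0.49 and Atp5d, the delta subunit, at -0.01 with overlap.

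Atp5e, the small epsilon subunit of the same head, stood opposite. It had 8.40, 8.33 and 9.54 in SOD1 G93A mice and 7.20, 7.93 and 7.60 in NTg mice at 120 days, a difference of 1.18 (SE 0.361, limma adjusted p = 0.063), the highest of all members and not called. Replicate 3, the lowest SOD1 G93A mouse for most V1 genes, was here the highest, and without it the difference was 0.82. At 90 days the groups overlapped, with 9.92, 9.08 and 9.39 in SOD1 G93A mice and 9.49, 9.02 and 9.75 in NTg mice.

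The 12 genes of FO and the stalk had a median of 0.20, which was -0.20 with median centring, where it stayed 0.19 above that of all genes. The side stalk subunit Atp5pb (b) was at 11.59, 11.19 and 10.90 in SOD1 G93A mice and at 12.04, 11.97 and 12.01 in NTg mice, a difference of -0.78 (limma adjusted p = 0.0779). The 3 genes of the c ring, which code for the same mature protein behind different import signals, differed among themselves. Atp5g2 was at 7.23, 7.49 and 7.99 in SOD1 G93A mice and at 6.69, 6.82 and 6.81 in NTg mice, a difference of 0.80 (limma adjusted p = 0.0813). Atp5g3 was at 12.26, 11.77 and 11.73 in SOD1 G93A mice and at 12.31, 12.35 and 12.46 in NTg mice, a difference of -0.45 (limma adjusted p = 0.279). Neither of these overlapped, and Atp5g1 was at -0.18 with overlap.

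The small membrane subunits that hold synthase dimers together gave low positive differences at 120 days. Atp5k (e) was at 11.15, 11.08 and 11.65 in SOD1 G93A mice and at 10.73, 10.74 and 10.80 in NTg mice, a difference of 0.54 without overlap. Atp5md was at 9.87, 9.90 and 9.94 in SOD1 G93A mice and at 9.65, 9.12 and 9.47 in NTg mice, a difference of 0.49 without overlap. Atp5mpl and Atp5l (g) were at 0.42 and 0.40 with overlap. None of these was called, and Atp5md, Atp5mpl and Atp5l came to -0.06, -0.16 and -0.01 with median centring. The remaining Atp5h, Atp5j, Atp5j2 and Atp5o lay between -0.04 and 0.31.

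**Figure D3:**
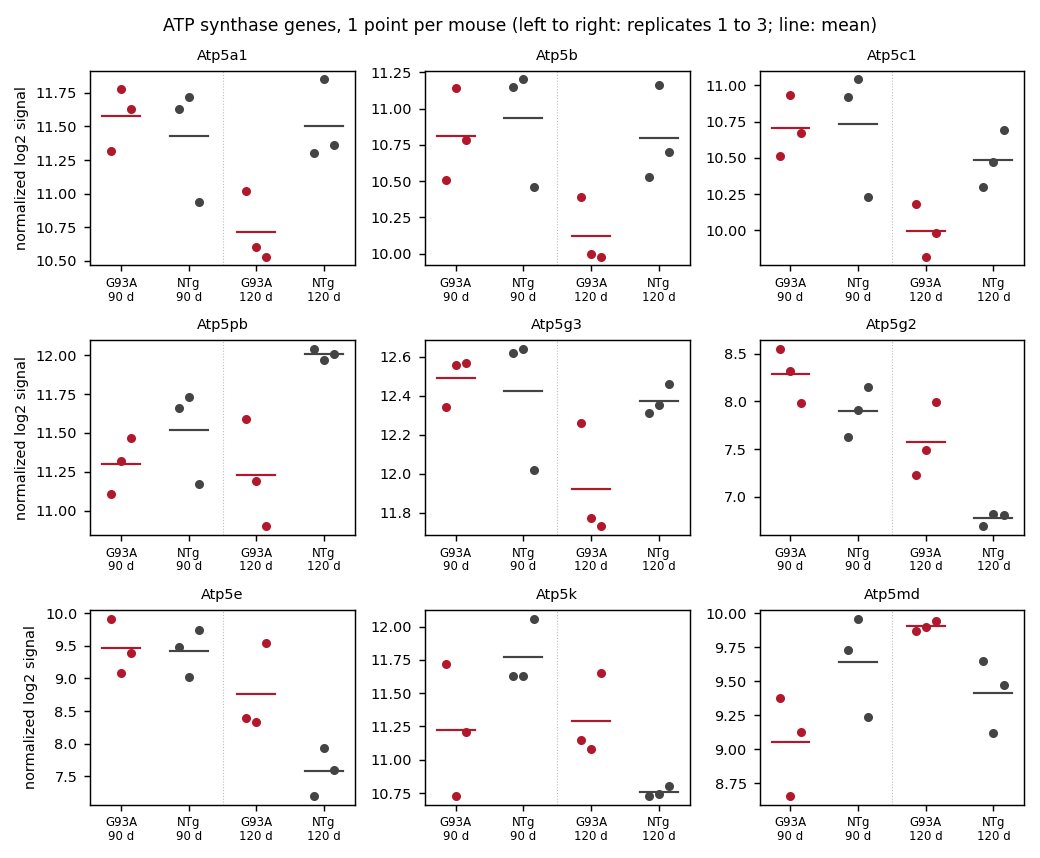
Normalized log2 signal (vertical axis, a scale of its own in each panel) of 9 ATP synthase genes in each mouse, SOD1 G93A in red and NTg in grey, replicates 1 to 3 from left to right with the mean as a line. At 120 days SOD1 G93A points lie below all NTg points for Atp5a1, Atp5b, Atp5c1, Atp5pb and Atp5g3 and above them for Atp5g2, Atp5e, Atp5k and Atp5md (whose difference turned to -0.06 with median centring), and none of these genes was called.

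Across both pumps, 9 of 17 Atp6 genes and 5 of 17 Atp5 genes had all SOD1 G93A mice below all NTg mice at 120 days (20.4% of all genes), and 0 Atp6 genes and 4 Atp5 genes had them above (15.3% of all genes). Of 35 Atp6 probe sets tested 4 fell, and of 29 Atp5 probe sets none was called, against 3.86% of all probe sets that fell. By the brightest probe set, some Atp6 genes not called in the main fit fell under part of 24 alternatives. They were Atp6v1a in 9, Atp6ap2 in 5, Atp6v1b2 in 4 and Atp6v1g2 in 3, and Atp6v0d1, Atp6v0e2 and Atp6v1e1 in 1 each. Probe sets of 1 gene can target different parts or isoforms of the transcript. Among genes with several tested probe sets, 7 of 11 Atp6 genes and 6 of 9 Atp5 genes had all of them on the same side of 0.

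At 90 days no member was called, where 0.225% of all genes were. By limma at an unadjusted p under 0.05 only Atp5md was found, which was lower, where 6.22% of all genes were found. It was at 9.38, 8.66 and 9.13 in SOD1 G93A mice and at 9.73, 9.96 and 9.24 in NTg mice, a difference of -0.59 with overlap. The count of calls was 0 under each of 25 alternatives. The median difference was -0.05 for Atp6 and -0.13 for Atp5 genes, against 0.02 for all genes. All 9 V1 genes had a negative difference, between -0.37 and -0.01, none of them without overlap of the mice. Of all 12429 genes 5872 were negative. With a mouse left out, Atp6v1d, Atp6v1f and Atp6v1h stayed negative. Each of the other V1 genes turned positive in some omission, up to 0.36 for Atp6v1a. Groups did not overlap for Atp6ap2 (-0.25), Atp5h (-0.38) and Atp5mpl (-0.34), with SOD1 G93A mice lower, where 5.45% of all genes had this order.

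The test of the difference between the ages, the late-stage genotype difference minus the symptomatic one, called no member and no gene of the 12429. By limma at an unadjusted p under 0.05, 6 members were found, against 9.08% of all genes. Atp6v1a (-1.47), Atp6v1c1 (-0.91) and Atp5a1 (-0.94) had the more negative differences at the late stage and Atp5md (1.08), Atp5k (1.10) and Atp5e (1.14) the more positive ones, with the lowest p of 0.0151 for Atp5md and adjusted p of 0.470. The genotype differences are therefore not shown to differ between 90 and 120 days for any member.

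**Figure D4:**
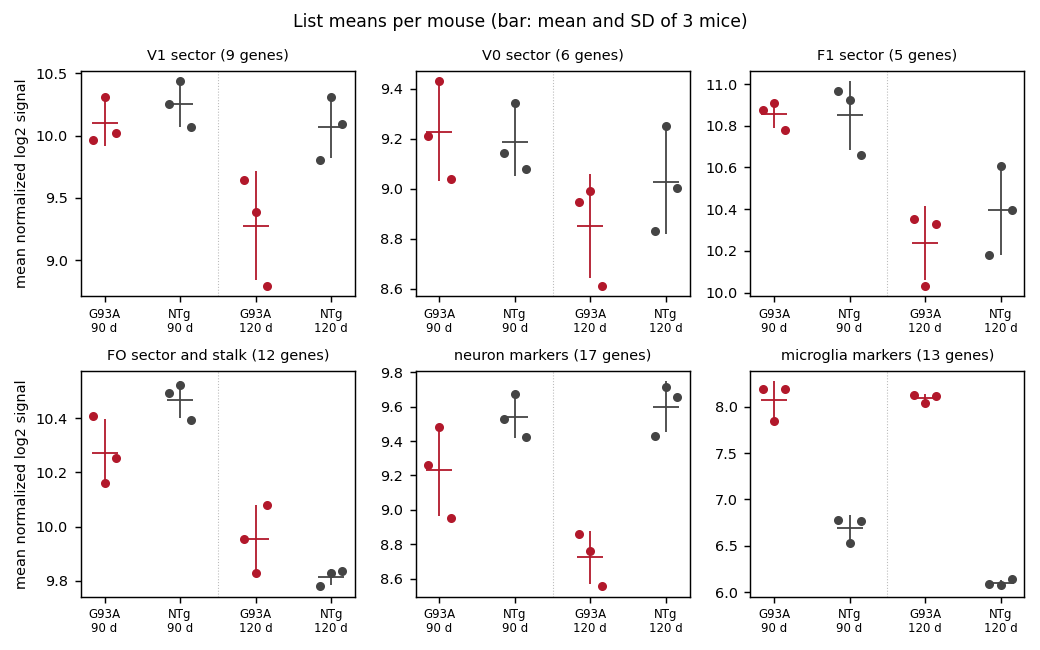
Mean normalized log2 signal per mouse over the genes of each list (vertical axis, a scale of its own in each panel) for the 4 sectors and for neuron and microglia markers, with bars for the mean and SD of 3 mice, SOD1 G93A in red and NTg in grey. At 120 days the V1 means lie at 8.79 to 9.64 in SOD1 G93A mice and 9.81 to 10.31 in NTg mice, while the V0, F1 and FO means overlap between the groups. The neuron marker means, at 8.56 to 8.86 in SOD1 G93A mice and 9.43 to 9.71 in NTg mice, do not overlap either. Nor do the microglia marker means, at 8.04 to 8.13 in SOD1 G93A mice and 6.07 to 6.14 in NTg mice.

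Between 90 and 120 days within a genotype, in a fit normalized over all 12 arrays, 3 members were called in SOD1 G93A mice and 3 in NTg mice, where 6.05% and 3.48% of all genes were. Atp5j, of the side stalk, fell in both, by 0.94 in SOD1 G93A mice and by 1.03 in NTg mice (limma adjusted p = 0.0314 and 0.0322). In SOD1 G93A mice Atp6v1h fell by 1.60 (SE 0.331, limma adjusted p = 0.0154) and Atp5md rose by 1.02 (SE 0.272, limma adjusted p = 0.0413). In NTg mice Atp5e fell by 1.76 (SE 0.366, limma adjusted p = 0.0233) and Atp5g2 fell by 1.15 (SE 0.267, limma adjusted p = 0.0355). The genotype differences at 120 days rest on the same NTg mice of 120 days. Run batches of the arrays are not given in the labels, so age and batch cannot be told apart. The log2 ratio of 3' to 5' probe sets of Gapdh, a sign of RNA quality, was 4.39 to 5.08 at 120 days and 3.60 to 4.47 at 90 days in SOD1 G93A mice, and 4.52 to 5.01 at 120 days and 3.49 to 4.60 at 90 days in NTg mice. The same ratio for beta-actin was 5.10 to 5.65 at 120 days and 3.87 to 5.49 at 90 days in SOD1 G93A mice, and 4.95 to 5.58 at 120 days and 4.06 to 5.85 at 90 days in NTg mice. The ages overlapped in each case, and the part of these ratios in the calls was not tested. The count came to 0 without SOD1 G93A replicate 2 or 3 of 90 days for SOD1 G93A mice, to 1 without SOD1 G93A replicate 3 of 120 days, and to 0 or 1 without any single NTg mouse of either age for NTg mice. With median centring it was 19 and 6.

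Genes that assemble, regulate or work beside the pumps were described from lists outside the naming rule. The lists were chosen with earlier results of these data known, so their counts are no separate test. The counts come from the same mice, and the genes are not independent. Of 16 V-ATPase partners 3 fell at 120 days and none rose, where 4.47% of all genes fell and 4.14% rose. Dmxl2 (rabconnectin-3 alpha) was at 9.69, 9.53 and 9.22 in SOD1 G93A mice and at 10.98, 11.15 and 11.04 in NTg mice, a difference of -1.57 (SE 0.272, limma adjusted p = 0.00541), which passed under all 24 alternatives. Its partner Wdr7 (rabconnectin-3 beta) was at 9.23, 9.21 and 8.77 in SOD1 G93A mice and at 10.09, 10.45 and 10.24 in NTg mice, a difference of -1.19 (SE 0.267, limma adjusted p = 0.0202).

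Oxr1, a TLDc-domain protein of the kind that binds V1, was at 8.75, 8.60 and 7.97 in SOD1 G93A mice and at 9.65, 10.04 and 9.91 in NTg mice, a difference of -1.43 (SE 0.291, limma adjusted p = 0.0125). Other partners of these kinds were not called, among them Dmxl1 (-0.98, limma adjusted p = 0.063), the rabconnectin-binding Rogdi (0.33), and the TLDc-domain proteins Ncoa7 (-1.23, limma adjusted p = 0.0522) and Tbc1d24 (-0.23). Oxr1 lost its call without NTg replicate 2 or 3 of 120 days, and Wdr7 without either of those or without SOD1 G93A replicate 3 of 120 days. The regulators Tfeb (0.48), Tfe3 (-0.01) and Mitf (0.10), which bind the CLEAR element, were not called. The 12 ATP synthase partners had a median difference of -0.69 at 120 days, and 11 were negative. Over all 12429 genes the median was -0.08, and 6866 were negative. By limma 7 were lower at an unadjusted p under 0.05, where 16.1% of all genes were. All SOD1 G93A mice lay below all NTg mice for 6 of them, where 20.4% of all genes had this order. Of these 12 partners 1 fell and none rose, where 4.47% of all genes fell. It was Atpaf1, the chaperone that assembles the beta subunit into F1, at 8.39, 8.39 and 7.29 in SOD1 G93A mice and at 9.38, 10.20 and 9.56 in NTg mice, a difference of -1.69 (SE 0.349, limma adjusted p = 0.0132), lost with each age fitted alone and without NTg replicate 2 of 120 days. The adenine nucleotide carriers Slc25a4 (-0.72) and Slc25a5 (-0.79) and the phosphate carrier Slc25a3 (-0.71), which supply the synthase, were not called. At 90 days no partner was called, and 2 of the V-ATPase partners were lower at an unadjusted p under 0.05 by limma, where 2.72% of all genes were.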

How the data were processed

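Laser-captured astrocyte RNA of 12 mice was amplified over 2 rounds and hybridized to Affymetrix Mouse Genome 430 2.0 arrays, 1 per mouse. The deposited values are linear signal intensities that the authors made with MAS5 and brought to a trimmed mean of 100 per array. MAS5 carries no version in the labels, and the paper describes PLIER and ALDH1L1 staining where the labels give MAS5 and toluidine blue.

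Signals were set to log2 after an offset of 7 and quantile normalized within each age. After removal of 64 control probe sets, 26132 of 45101 were tested, those whose signal passed the array median in 3 or more arrays. The 4 group means, with 8 residual degrees of freedom, were fitted in limma 3.58.1 (R 4.3.3) with eBayes, with Benjamini-Hochberg adjustment over all probe sets tested and a threshold of 0.05. Tests were two-sided. Genes named singly were those called, those with the lowest p and the brightest of each set, the isoform families and called partners, and further members were named after their values were seen. The platform annotation gave 34945 probe sets 1 symbol, 932 several and 9160 none. The number of arrays and signals near the offset limit the precision. The members, sectors, partner and marker lists were chosen with earlier results of these data known. Same-numbered mice did not deviate together (correlations from -0.28 to 0.28), and the main fit used no pairing. With 3 mice a group these correlations cannot show whether the replicate numbers pair mice. The steps were tested on simulated data. Figures used python 3.11.15 and matplotlib 3.10.9.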

Additional observations from a re-analysis of the deposited data

How the results depend on the processing

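With 3 mice a group the number of members called at 120 days, 2 of 34, depended on the settings. It was 0 with no filter on low values and with each age fitted alone, 3 with array weights, 4 with quantile normalization over all 12 arrays and with the mean of all probe sets of a gene, 8 with a filter at the 75th percentile and with an offset at the 50th percentile, and 9 with median centring and with a trended and robust prior. It ranged from 0 to 5 when each mouse was left out. The cause was not tested. The Atp6 median at 120 days, -0.61 as reported, was -0.99 with median centring, -0.39 with no filter and -0.77 to -0.51 with a mouse left out, and was negative under all 25 alternatives. The Atp5 median at 120 days changed sign to -0.27 with median centring and to -0.015 with array weights, and ranged from -0.018 to 0.11 with a mouse left out. At 90 days the Atp6 median, -0.05 as reported, was -0.18 with the mean of all probe sets and ranged from -0.19 to -0.0015 with a mouse left out, and the Atp5 median ranged from -0.25 to -0.063. Calls between the ages came to 19 in SOD1 G93A mice and 6 in NTg mice with median centring, and to 0 to 3 and 0 to 5 with a mouse left out. No member was called at 90 days or in the difference between ages under any alternative run.

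With the replicate number as a block, 0 members were called at 120 days, where 2 were without it, and whether the numbers pair mice is not known. Of 1920 values of single probe sets under an alternative, 1752 kept their direction and side of the threshold, 51 lost and 37 gained a call, and 80 uncalled values changed sign. No called value changed sign.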
